A study of Arabidopsis thaliana with 2 samples.

Results

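The proteins of the small ribosomal subunit are described here in root tips of Arabidopsis thaliana. The loci were chosen by protein name: nuclear loci whose name in the deposited annotation held "ribosomal protein S" or "40S" and neither "ribosomal protein L" nor "60S". This gave 119 of 22937 listed loci, with 144 of 26425 listed transcripts. By the annotation 71 of them encode cytosolic subunit proteins, 9 plastid and 9 mitochondrial ones. A further 10 belong to bacterial-type families whose organelle the annotation does not give, 15 are other proteins whose name only holds the words, and 5 are pseudogenes. The study set the mutant atphb3, named for PROHIBITIN 3 (PHB3), against the wild-type accession Col, with 1 library each and therefore no replicates, and asked how their root transcriptomes differ under normal growth. Total RNA came from tips of primary roots, and a sentence of the labels' extraction protocol also names shoots. Seeds had 3 days of cold, and both genotypes grew on Murashige and Skoog plates at 20 °C in a cycle of 16 h light and 8 h dark. The labels give no allele for atphb3, no seedling age and no harvest time.

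The small subunit of the cytosolic ribosome binds the mRNA, is loaded with initiation factors and the initiator tRNA, and finds the start codon. It is built in the nucleolus and cytoplasm on the 18S rRNA from a set of proteins that each sit in the head, beak and neck region or in the body and platform. In Arabidopsis most of these proteins are made from a few paralogous genes, and root meristems, where cells grow and divide, are known for a high demand for them. Plastids and mitochondria have ribosomes of a bacterial type. Some of their small subunit proteins are encoded in the organelle and the others in the nucleus.

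Reads assigned to transcripts numbered 7384348 in atphb3 and 7451022 in Col. These names stand for the libraries so labelled: PHB3 itself (AT5G40770), which encodes a scaffold of the mitochondrial inner membrane, had 863 reads in atphb3 and 915 in Col, so its level gave no check of the label. Reads were summed per locus and scaled to a total of 1000000 reads per library (CPM), and all ratios are atphb3 over Col. A locus with at least 50 reads in at least 1 library is called measured. That held for 12931 loci, with a median log2 ratio of 0.08, and for 95 of the 119 loci studied here. Of these 95, 5 passed through atphb3 alone and 0 through Col alone. With 1 library per genotype there is no test across genotypes. Intervals are 95% exact (Clopper-Pearson) ones that cover counting error only and compare the libraries. In whole tips, a change in the share of a cell type and a change in RNA per cell cannot be told apart.

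Nearly all nuclear genes for the small subunits of the cytosol and the mitochondria were higher in atphb3, and those for the plastid small subunit were lower. Without any read minimum, 70 of the 71 cytosolic loci were higher in atphb3, against 54.8% of all listed loci. The single exception, AT5G09500, had 3 reads in atphb3 and 4 in Col. All 9 mitochondrial loci were higher, and all 9 plastid loci were lower. Of the 7 measured plastid loci, 7 were lower, against 45.4% of all measured loci. Among measured loci, the median log2 ratio was 0.90 for 65 cytosolic, 0.70 for 8 mitochondrial and -0.46 for 7 plastid loci.

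**Figure D1:**
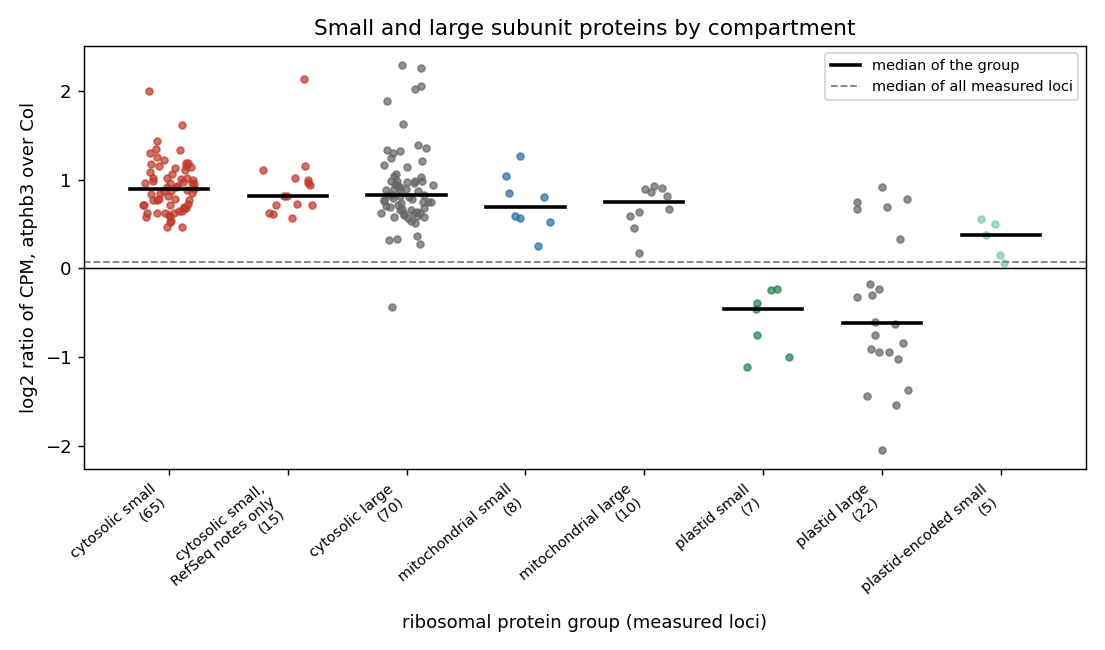
Log2 ratio of CPM, atphb3 over Col (y axis), of each measured locus (points) in 8 groups of ribosomal protein genes, with the group's median as a black bar and the median of all measured loci, 0.08, as a dashed line. The cytosolic and mitochondrial groups lie mostly above the dashed line for both subunits, whereas the plastid groups encoded in the nucleus have medians of -0.46 (small subunit) and -0.61 (large subunit). Large subunit groups rest on words in names and notes, and the placing is uncertain for some loci.

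The cytosolic loci together held 117017 reads in atphb3 and 66148 in Col, or 1.58% of all reads in atphb3 and 0.888% in Col, a ratio of 1.78 (1.77 to 1.80). Of the 65 measured loci, 23 were at least 2-fold higher, where 9.74% of all measured loci were, and 0 were 2-fold lower, where 10.1% were. At 1.5-fold, 59 were higher against a background of 22%. The loci were close to each other: their log2 ratios ran between 0.47 and 2.0 with an SD of 0.29 across loci, against an SD of 1.05 across all measured loci. The latter include loci of all levels, so this comparison is not matched for level. The SD was 0.32 for the mitochondrial small subunit, 0.24 for the mitochondrial large subunit and 0.45 for the cytosolic large subunit. The 4 cytosolic loci that passed the minimum through atphb3 alone were AT1G07770 (78 reads in atphb3 and 40 in Col), AT1G48830 (63 reads in atphb3 and 41 in Col), AT3G47370 (102 reads in atphb3 and 45 in Col) and AT5G59240 (72 reads in atphb3 and 30 in Col). These 4 kept their place when the mean of both libraries had to reach 50 reads, which again left 65 loci with a median of 0.90.

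Markers of cell types differed between the libraries in both directions. Of 8 root tip genes (PLT1, PLT2, PLT3, WOX5, SHR, SCR, SMB and RGF1), 6 were measured. All 6 were higher in atphb3 (background 54.6%) and 4 at least 2-fold (background 9.74%). Of these, WOX5 and PLT3 were measured through atphb3 alone, the library in which they were high. SMB, with 1 read in atphb3 and 2 in Col, and RGF1, with 2 reads in atphb3 and 1 in Col, were not measured. The 8 genes summed to 278 CPM in atphb3 and 133 CPM in Col. WOX5, of the quiescent centre, had 82 reads in atphb3 and 24 in Col. Of 8 markers of dividing cells 6 were measured and 4 of them higher (background 54.6%), which with so few genes says little. Their median was 0.25, and the 8 markers summed to 189 CPM in atphb3 and 156 CPM in Col. The 8 root hair genes, all measured, had a median of 1.0, and 7 were higher (background 54.6%). The 4 phloem genes summed to 88.2 CPM in atphb3 and 297 CPM in Col, and the 4 xylem genes to 225 CPM in atphb3 and 388 CPM in Col. Of 3 measured phloem genes 2 were lower, both at least 2-fold (background 10.1%), and 1 was nearly equal (CALS7, 272 reads in atphb3 and 270 in Col). Of 4 measured xylem genes 3 were lower (background 45.4%), 1 of them at least 2-fold (background 10.1%), and 1 was higher. None of these markers was at 0 in either library. The part of cell composition in the ribosomal protein result was not tested.

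Summed over the paralogs that the naming rule holds, all 28 cytosolic families were higher, by 1.46-fold (S15) to 2.34-fold (SA). The median was 1.90-fold and each interval lay above 1. Paralogs with other deposited names are not in these sums. The S18 sum lacks RPS18C (AT4G09800), with 3287 reads in atphb3 and 2234 in Col, a ratio of 1.48. In 4 families, S28 among them, the sum rests on 1 locus. The S28 sum also lacks a paralog with another deposited name, whose ratio was lower than that of the locus in the sum. In 8 families the sum was at least 2-fold higher and in 27 at least 1.5-fold. Head and body loci had nearly equal summed ratios. The 28 head loci had a summed ratio of 1.78 (1.75 to 1.82) and the 43 body loci one of 1.79 (1.77 to 1.81). Their measured medians were 0.93 and 0.89 on the log2 scale.

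**Figure D2:**
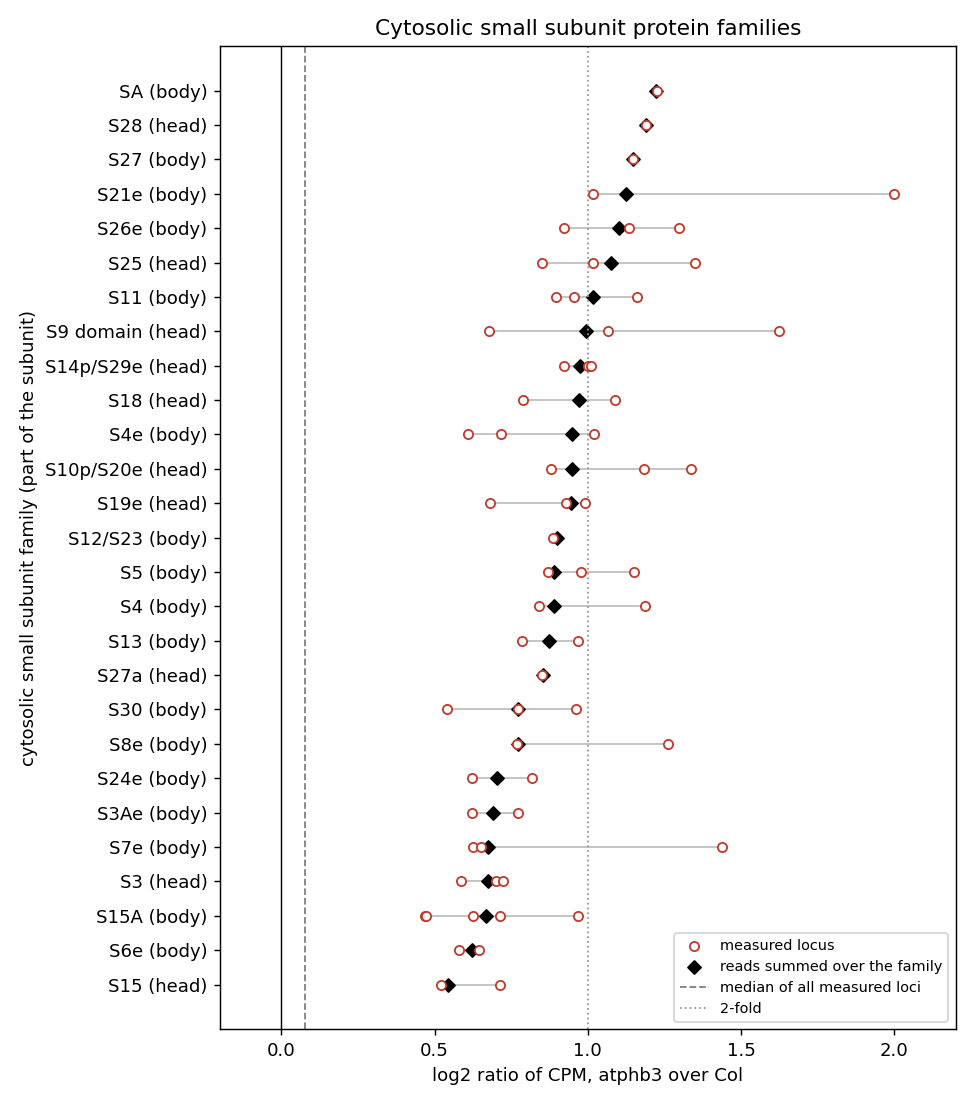
Log2 ratio of CPM, atphb3 over Col (x axis), for 27 of the 28 cytosolic families (y axis, with the part of the subunit). Open circles are measured loci, and diamonds are sums over the family's loci that the naming rule holds. Each diamond lies right of 0, between the S15 family at 0.55 and the SA family at 1.22, and the widest spread between paralogs is in the S21e family.

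Among proteins of the head, S28 sits near the exit of the mRNA channel. RPS28 (AT5G64140) had 934 reads in atphb3 and 413 in Col, a 2.28-fold difference (2.03 to 2.57). S25 is a small protein, and AT4G39200 of that family had 445 reads in atphb3 and 176 in Col (2.55-fold, 2.14 to 3.06). PFL (AT1G22780), an S18 gene named for the pointed first leaves of its mutant, had 2129 reads in atphb3 and 1009 in Col, 2.13-fold higher (1.97 to 2.30), while its paralog AT1G34030 had 1259 reads in atphb3 and 736 in Col. S15 was the family with the smallest ratio. Its main locus, RPS15 (AT1G04270), had 1120 reads in atphb3 and 787 in Col (1.44-fold, 1.31 to 1.58). AT1G23410 (S27a), whose protein is made as a fusion with ubiquitin, had 410 reads in atphb3 and 229 in Col. S3, which lines the mRNA entry side, also lay low in the range, with log2 ratios of 0.58 to 0.72 over its 3 loci.

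In the body, SA is known in yeast as a protein needed late in the maturation of the subunit. P40 (AT1G72370), its main gene, had 648 reads in atphb3 and 279 in Col, a ratio of 2.34 (2.03 to 2.71), and RPSAb (AT3G04770) had 14 reads in atphb3 and 7 in Col. S27 is a zinc finger protein. RS27A (AT3G61110) had 1896 reads in atphb3 and 863 in Col, a ratio of 2.22 (2.04 to 2.41). For S26e, next to the mRNA exit, AT3G56340 had 3461 reads in atphb3 and 1592 in Col (2.19-fold, 2.07 to 2.33), and AT2G40590 had 708 reads in atphb3 and 290 in Col (2.46-fold, 2.15 to 2.83). For S11, AT2G36160 had 2454 reads in atphb3 and 1108 in Col (2.23-fold, 2.08 to 2.40).

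Other body proteins were higher by less. S6e is the protein phosphorylated by S6 kinase downstream of TOR. RPS6 (AT4G31700) had 739 reads in atphb3 and 499 in Col, a ratio of 1.49 (1.33 to 1.68), and EMB3010 (AT5G10360), the other S6e gene, had 1518 reads in atphb3 and 979 in Col, a ratio of 1.56 (1.44 to 1.70). RPS13A (AT4G00100), whose mutant also has pointed first leaves, had 3039 reads in atphb3 and 1566 in Col, 1.96-fold higher (1.84 to 2.08). The S24e gene AT5G28060 had 3638 reads in atphb3 and 2383 in Col, 1.54-fold higher (1.46 to 1.62).

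Levels per transcript length and library size (RPKM) allow levels to be compared between genes. The cytosolic families spanned 75.4 (SA) to 1692 RPKM (S3Ae) in atphb3 and 32.3 to 1046 RPKM in Col. The loci of the highest mean RPKM were AT5G20290 (S8e), AT4G34670 and AT3G04840 (S3Ae), and AT2G41840 (S5). AT5G20290 had 11770 reads in atphb3 and 6971 in Col, a ratio of 1.70 (1.65 to 1.76). AT4G34670 had 7317 reads in atphb3 and 4793 in Col, a ratio of 1.54 (1.49 to 1.60). The lowest were AT1G48830 (S7e) and AT5G59240 (S8e), whose ratios of 1.55 (1.03 to 2.36) and 2.42 (1.56 to 3.84) rest on few reads. Cut into 3 classes of low, middle and high mean RPKM, the measured loci had median log2 ratios of 1.07, 0.88 and 0.82. At least 2-fold higher were 12 of 21, 5 of 23 and 6 of 21. Of the 12 in the low class, AT3G47370 and AT5G59240 were measured through atphb3 alone, the library in which they were high. Other loci in the same RPKM ranges had medians of 0.05, 0.20 and 0.41, with 8.83%, 9.40% and 13.1% at least 2-fold higher. So the difference between cytosolic loci and other loci was present in each class, and smaller among strongly expressed genes.

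**Figure D3:**
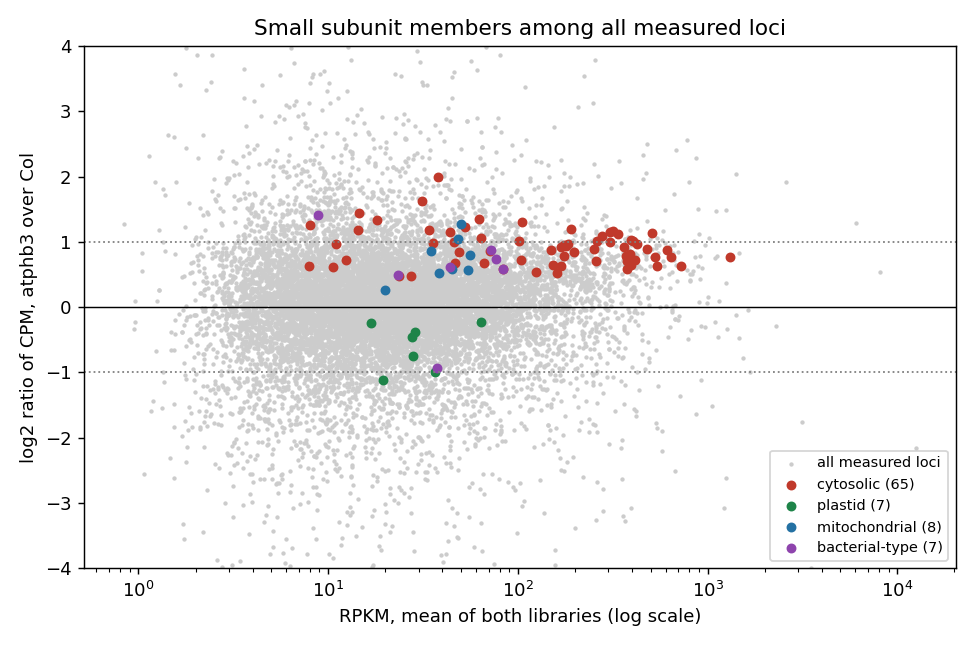
Log2 ratio of CPM, atphb3 over Col (y axis), against mean RPKM of both libraries (x axis, log scale) for all measured loci (grey) and for the cytosolic, plastid, mitochondrial and bacterial-type loci (colours). Dotted lines mark 2-fold, and 131 loci lie beyond the y axis. The 65 cytosolic loci form a band above 0 at every level, and the 7 plastid loci lie below 0.

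Paralogs of a family mostly differed little. Over 55 pairs of measured paralogs from 22 families, the median difference in log2 ratio was 0.23. The widest difference, 0.98, was in S21e, a small protein that in yeast is needed for maturation of the 18S rRNA. AT3G53890 (chromosome 3, 19955344 to 19956361, minus strand, as deposited) had 263 reads in atphb3 and 66 in Col, 4.02-fold higher (3.06 to 5.35). Its paralog AT5G27700 (chromosome 5) had 1558 reads in atphb3 and 777 in Col, 2.02-fold higher (1.86 to 2.21). AT3G53890 thus made up 14.4% of the family's reads in atphb3 (12.9 to 16.1) and 7.83% in Col (6.11 to 9.85). The coding sequences show how well reads of this pair can be told apart. They are the longest RefSeq coding sequences on TAIR10.1, 249 bases each, with introns removed, and capitals mark the 40 positions at which they differ.
AT3G53890 (chr3:19955582-19956049, minus strand): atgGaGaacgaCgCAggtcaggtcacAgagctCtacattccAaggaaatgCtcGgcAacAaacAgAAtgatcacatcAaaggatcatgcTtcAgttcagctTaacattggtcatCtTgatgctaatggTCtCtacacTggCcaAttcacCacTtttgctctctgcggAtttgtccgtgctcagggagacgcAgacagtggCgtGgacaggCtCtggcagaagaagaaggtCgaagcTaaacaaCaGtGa
AT5G27700 (chr5:9807541-9808048, minus strand): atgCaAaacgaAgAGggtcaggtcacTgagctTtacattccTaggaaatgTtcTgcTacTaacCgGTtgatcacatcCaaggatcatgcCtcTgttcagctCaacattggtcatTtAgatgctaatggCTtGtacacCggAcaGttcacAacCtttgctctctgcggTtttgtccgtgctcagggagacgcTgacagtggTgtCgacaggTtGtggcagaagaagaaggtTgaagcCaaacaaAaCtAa
The pair is 83.9% identical, and its longest identical run is 23 bases.

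The S9-domain and S7e families came next in spread. S9-domain proteins sit in the head. AT3G04230 had 233 reads in atphb3 and 76 in Col (3.09-fold, 2.38 to 4.06). AT2G09990 had 463 reads in atphb3 and 223 in Col (2.09-fold, 1.78 to 2.47), and AT5G18380 had 430 reads in atphb3 and 271 in Col (1.60-fold, 1.37 to 1.87). AT3G04230 held 20.7% of the family's reads in atphb3 and 13.3% in Col. In S7e, the minor locus AT3G02560 had 143 reads in atphb3 and 53 in Col (2.72-fold, 1.97 to 3.81), whereas AT5G16130, with 94.2% of the family's reads in atphb3 and 95.8% in Col, was 1.57-fold higher (1.49 to 1.66). The sources used here do not say how reads that match more than 1 gene or transcript were counted. Coding sequences of measured paralog pairs were 57.3% to 98.2% identical, with a median of 85.0%, and 2 pairs reached 95%: AT2G09990 with AT5G18380 and AT2G40510 with AT2G40590, whose longest identical runs were 114 and 152 bases. The split of reads within those pairs is uncertain. It may be so in pairs just under 95% too. AT3G43980 and AT3G44010 (S14p/S29e) were 94.2% identical, with a longest run of 62 bases. AT2G21580 and AT4G39200 (S25) were 93.0% identical, with a run of 57 bases and log2 ratios of 0.85 and 1.35. Of the 71 cytosolic loci, the 50 measured ones with 1 listed transcript had a median of 0.91.

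Site II elements, known as binding sites of TCP transcription factors, and telo boxes are known from the promoters of plant ribosomal protein genes. Their letters were looked up, on either strand, in the 250 bases before the RefSeq gene start on TAIR10.1, with the telo box as AAACCCTA and the site II element as TGGGCC or TGGGCT. Of the 71 cytosolic windows, 45 (63.4%) held a site II element and 12 (16.9%) a telo box. Of 12706 windows of measured loci, 22.7% and 3.52% did, and of all 27443 protein-coding windows 19.2% and 4.49%. Among the 9 plastid windows 4 held a site II element, among the 9 mitochondrial ones 3, and 0 of either group held a telo box. Measured cytosolic loci with a site II element had a median log2 ratio of 0.84 (42 loci), and those without one 1.09 (23 loci), with median levels of 229 and 43.7 RPKM. Loci with a site II element thus had the higher median level and the lower median ratio. For the telo box the median log2 ratio was 1.0 in loci that hold it (10 loci) and 0.89 in those that do not (55 loci), with median levels of 230.4 and 168 RPKM. The windows below overlap no other RefSeq gene and are shown because their genes lie at different points of the range: AT5G27700 (S21e), AT3G56340 (S26e) and AT4G39200 (S25) are cytosolic and at least 2-fold higher, AT1G74970 (S9) is a plastid gene that was lower, and AT1G77750 (S13) is a mitochondrial gene that was higher. Motif letters are in capitals.
AT5G27700 (chr5:9808514-9808763, minus strand): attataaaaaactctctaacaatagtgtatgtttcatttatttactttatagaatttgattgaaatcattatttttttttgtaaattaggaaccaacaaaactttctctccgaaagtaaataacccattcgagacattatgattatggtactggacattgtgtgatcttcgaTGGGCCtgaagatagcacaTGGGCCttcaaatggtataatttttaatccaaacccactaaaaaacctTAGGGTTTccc
AT3G56340 (chr3:20893479-20893728, minus strand): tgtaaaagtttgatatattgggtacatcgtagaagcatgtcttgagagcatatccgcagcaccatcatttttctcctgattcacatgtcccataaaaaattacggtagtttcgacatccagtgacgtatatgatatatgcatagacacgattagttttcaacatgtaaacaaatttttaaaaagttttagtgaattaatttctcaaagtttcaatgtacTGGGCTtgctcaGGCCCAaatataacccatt
AT4G39200 (chr4:18257084-18257333, plus strand): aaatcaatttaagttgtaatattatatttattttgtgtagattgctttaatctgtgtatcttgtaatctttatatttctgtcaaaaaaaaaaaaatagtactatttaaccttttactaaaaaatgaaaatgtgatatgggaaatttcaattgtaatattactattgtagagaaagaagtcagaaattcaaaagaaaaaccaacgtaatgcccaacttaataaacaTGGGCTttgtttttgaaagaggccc
AT1G74970 (chr1:28159318-28159567, minus strand): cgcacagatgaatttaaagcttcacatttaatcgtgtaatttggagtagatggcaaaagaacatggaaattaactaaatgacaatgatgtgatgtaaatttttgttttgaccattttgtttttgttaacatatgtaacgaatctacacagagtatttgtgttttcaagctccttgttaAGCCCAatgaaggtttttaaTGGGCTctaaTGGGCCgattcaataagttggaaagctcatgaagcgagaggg
AT1G77750 (chr1:29231728-29231977, minus strand): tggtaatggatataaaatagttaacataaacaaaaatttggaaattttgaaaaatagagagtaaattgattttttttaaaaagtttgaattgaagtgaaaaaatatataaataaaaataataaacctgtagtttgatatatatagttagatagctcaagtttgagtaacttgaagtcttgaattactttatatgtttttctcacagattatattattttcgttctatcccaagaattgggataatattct
The S21e window holds both kinds of motif, with its telo box 11 bases before the gene start, the plastid window holds 3 site II elements, and the mitochondrial window holds neither.

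**Figure D4:**
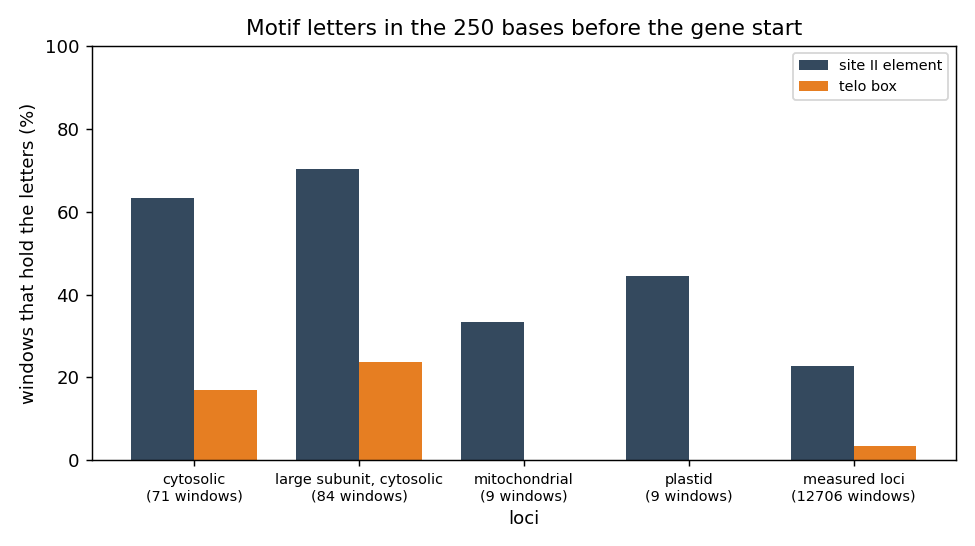
Share of windows of 250 bases before the gene start that hold a site II element or a telo box (y axis, percent), for cytosolic small subunit, cytosolic large subunit, mitochondrial and plastid small subunit loci and for all measured loci (x axis). The cytosolic small subunit bars stand at 63.4% and 16.9%, those of all measured loci at 22.7% and 3.52%.

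The nuclear genes of the mitochondrial small subunit were higher. Together the 9 loci had 3301 reads in atphb3 and 2025 in Col, a ratio of 1.64 (1.56 to 1.74). Of 8 measured ones, 2 were at least 2-fold higher (background 9.74%), which with so few loci says little. AT1G77750 (S13 family) had 360 reads in atphb3 and 150 in Col, 2.42-fold higher (2.0 to 2.95). In bacteria, S13 reaches from the head of the small subunit to the large one, and S10 lies in the head. RPS10 (AT3G22300) had 483 reads in atphb3 and 237 in Col, 2.06-fold higher (1.76 to 2.41). The other named ones were higher by less than 2-fold. RPS2 (AT3G03600) had 483 reads in atphb3 and 279 in Col. RPS19 (AT5G47320) had 508 reads in atphb3 and 345 in Col, and RPS14 (AT2G34520) had 351 reads in atphb3 and 235 in Col. The smallest ratio was that of AT4G21460 of the S24/S35 family, which had 259 reads in atphb3 and 219 in Col, a log2 ratio of 0.25. AT3G18240, the other gene of that family, had 41 reads in atphb3 and 19 in Col and was not measured.

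The nuclear genes of the plastid small subunit were lower. Together the 9 loci had 1246 reads in atphb3 and 1894 in Col, a ratio of 0.664 (0.618 to 0.713). Of the 7 measured, 1 was at least 2-fold lower (background 10.1%) and 3 at least 1.5-fold lower (background 18.3%). AT1G64510 (S6 family, chromosome 1, minus strand) had 78 reads in atphb3 and 171 in Col, a ratio of 0.460 (0.348 to 0.605). RPS9 (AT1G74970) had 172 reads in atphb3 and 347 in Col, a log2 ratio of -1.0, just inside 2-fold. RPS1 (AT5G30510), the S1 protein that binds mRNA in bacterial-type ribosomes, had 241 reads in atphb3 and 409 in Col, a log2 ratio of -0.75. GHS1 (AT3G27160), an S21 protein named for its glucose-hypersensitive mutant, had 154 reads in atphb3 and 203 in Col. AT3G15190 (S20) had 152 reads in atphb3 and 211 in Col. RFC3 (AT3G17170, S6), named for regulation of fatty acid composition, had 128 reads in atphb3 and 153 in Col. The 2 loci that were not measured were thinly covered, with 10 reads in atphb3 and 29 in Col for AT5G14320 (S13) and 3 reads in atphb3 and 5 in Col for AT5G63300 (S21). Of the measured plastid loci, 3 overlap another listed locus, AT3G15190 and AT3G17170 among them. Without these 3 the median of the measured plastid loci was -0.87 (4 loci) in place of -0.46.

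Most shoot markers were lower in atphb3, as the nuclear genes of the plastid small subunit were. Of 6 such genes (RBCS1A, CAB3, LHB1B1, RCA, CA1 and PSAD-1), 5 were measured and all 5 were at least 2-fold lower in atphb3 (background 10.1%). RBCS1A, CAB3, LHB1B1 and CA1 were measured through Col alone, the library in which they were high. RCA was not measured and was not lower, with 31 reads in atphb3 and 28 in Col. The 6 genes summed to 307 reads (41.6 CPM) in atphb3 and 1785 reads (240 CPM) in Col. In either library, 0 of the 6 were at 0. The most extreme, LHB1B1, had 2 reads in atphb3 and 455 in Col. Their part in the plastid result was not tested. Small subunit proteins that the plastid itself encodes gave other values. Of 12 such genes listed, 5 were measured, each had more reads in atphb3, and their median log2 ratio was 0.37. The counting intervals of RPS14 (ATCG00330) and RPS19 (ATCG00820) among them included 1. The other 7 had at most 39 reads in either library. All 12 together had 2996 reads in atphb3 and 2406 in Col (ratio 1.26, 1.19 to 1.33). RPS19 (ATCG00820) had 732 reads in atphb3 and 708 in Col.

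**Figure D5:**
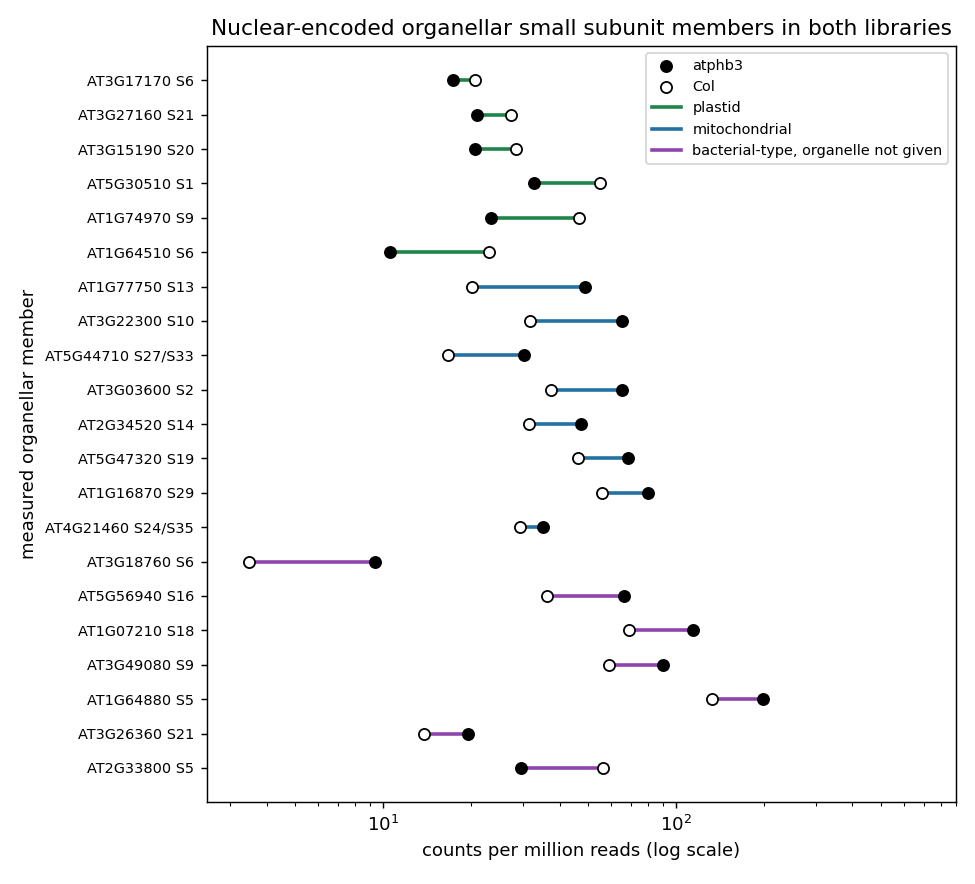
CPM (x axis, log scale) of measured organellar loci (y axis, 21 of 22) in atphb3 (filled) and Col (open), joined by a line coloured by organelle. The atphb3 point lies left of the Col point for all 6 plastid loci shown and right of it for all 8 mitochondrial loci. Of the bacterial-type loci only AT2G33800 lies left.

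Among the 10 bacterial-type loci with no stated organelle, 8 were higher and 2 lower. AT3G18760 (S6) had 69 reads in atphb3 and 26 in Col, 2.68-fold higher (1.68 to 4.38), and was measured through atphb3 alone. AT1G64880, AT1G07210 and AT5G56940 were higher by less than 2-fold. AT1G64880 (S5) had 1460 reads in atphb3 and 986 in Col. AT1G07210 (S18) had 845 reads in atphb3 and 514 in Col, and AT5G56940 (S16) had 491 reads in atphb3 and 270 in Col. Both lower loci stand out from these: AT2G33800 (S5) had 219 reads in atphb3 and 421 in Col, and AT3G13120 (S10) had 10 reads in atphb3 and 33 in Col. AT2G07696 (S7), with 5 reads in atphb3 and 2 in Col, and AT2G07734 (S4), with 12 reads in atphb3 and 3 in Col, were barely covered. Over all 28 organellar loci, 22 were measured; 3 of these passed the 2-fold limit upward (background 9.74%) and 1 passed it downward (background 10.1%), shares close to or under the background, with a median log2 ratio of 0.55 that joins plastid loci that were lower and mitochondrial loci that were higher.

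The 15 loci that only share the words in their name include elongation factors. LOS1 (AT1G56070), an EF-2 gene, had 16126 reads in atphb3 and 11405 in Col, with a log2 ratio of 0.51. AT5G19510, annotated as elongation factor EF1B, had 4884 reads in atphb3 and 2381 in Col, 2.07-fold higher (1.97 to 2.17). It overlaps another listed locus. Of the 15, 13 were higher, and the 8 measured ones had a median of 0.57. AT5G25230, of the EF-G and EF-2 family, had 39 reads in atphb3 and 0 in Col and was not measured. None of the 5 pseudogenes was measured, and they had 41 reads in atphb3 and 31 in Col in all.

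The naming rule leaves out small subunit proteins whose deposited name has other words. RefSeq's notes place 16 further listed loci in the cytosolic small subunit, and 16 of 16 were higher, with a median log2 ratio of 0.82 over 15 measured. The notes were taken as they stand, and may misplace some loci: AT1G31817 among them is named as an L18p/L5e family protein. AT2G05220 (S17 family) had 190 reads in atphb3 and 43 in Col, 4.46-fold higher (3.19 to 6.36), and its family member AT2G04390 had 1258 reads in atphb3 and 626 in Col. RPS18C (AT4G09800), another S18 gene, had 3287 reads in atphb3 and 2234 in Col, a ratio of 1.48 (1.41 to 1.57). Also outside the naming rule, RPS5A (AT3G11940) had 698 reads in atphb3 and 420 in Col, and RPS5B (AT2G37270) 126 reads in atphb3 and 59 in Col. The scaffold protein RACK1, which sits on the head, was also higher: its gene AT1G18080 had 7289 reads in atphb3 and 3539 in Col, a ratio of 2.08 (2.0 to 2.16). None of these genes is among the 119.

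Values of the large subunit stand beside these, with no test of the difference. Of 84 loci placed in its cytosolic form by words in their names and notes, 82 were higher. Their measured median was 0.83 and their summed ratio 1.76 (1.74 to 1.78), beside 1.78 for the small subunit. Of the measured loci so placed 1 was lower, AT5G13510 (L10 family, log2 ratio -0.44). Its placing rests on those words alone, so it may not be an exception among cytosolic proteins. Of 25 plastid loci so placed, 18 were lower, with a measured median of -0.61. The 7 higher ones include RPL10B (AT1G26910, log2 ratio 0.78) and AT1G26880 of the L34e superfamily (0.92). Another locus of that superfamily, AT3G28900, stands in the cytosolic set, so the placing is uncertain for some loci. All 12 mitochondrial loci were higher, with a median of 0.75. A further 68 loci, for which these notes settle no compartment, had a median of 0.71 over 50 measured, and 60 of the 68 were higher.

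Factors that build the small subunit had a lower median than the subunit's own proteins. Of 18 measured assembly genes, 17 were higher (54.6% of all measured loci were), and 2, FIB2 and FIB1, at least 2-fold, a share close to the background of 9.74%. Their median log2 ratio was 0.66. FIB2 (AT4G25630), a fibrillarin that methylates rRNA, had 1563 reads in atphb3 and 647 in Col, 2.44-fold higher (2.22 to 2.68), and FIB1 (AT5G52470) had 206 reads in atphb3 and 102 in Col, 2.04-fold higher (1.60 to 2.61). IMP4 (AT1G63780), of the processome, had 520 reads in atphb3 and 265 in Col, 1.98-fold higher (1.70 to 2.30). NUC2 (AT3G18610), a nucleolin, was the exception with 88 reads in atphb3 and 113 in Col.

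Initiation factors that load the subunit had a median of 0.51 over 16 measured genes, of which 15 were higher (background 54.6%) and 2 at least 2-fold, again close to the background of 9.74%. TRIP-1 (AT2G46280), a subunit of eIF3, had 145 reads in atphb3 and 65 in Col, 2.25-fold higher (1.67 to 3.06). EIF3K (AT4G33250) had 1729 reads in atphb3 and 1078 in Col, 1.62-fold higher (1.5 to 1.75). AT1G77840, annotated as IF2/IF5, had 3636 reads in atphb3 and 1018 in Col, and AT4G27130 (SUI1 family) was lower with 1133 reads in atphb3 and 1732 in Col. Of the TOR and S6 kinase list, 3 of 6 genes were measured, with a median of -0.07. The S6 kinase gene AT3G08730 had 853 reads in atphb3 and 654 in Col, 1.32-fold higher (1.19 to 1.46), and RAPTOR1 (AT3G08850) had 1444 reads in atphb3 and 1697 in Col, a ratio of 0.859 (0.80 to 0.922).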

How the data were processed

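The authors deposited 1 table with, per transcript, a read count and an RPKM value for each library, the log2 ratio, a p-value and an FDR, per the file headers. The values show that the authors' RPKM is the count divided by transcript length and library total. The aligner, the counting tool and the genome build are not given in the sources used here. Random primers and an Illumina instrument were used, per the labels' protocols, which name no strand-marking kit, so overlapping genes cannot be told apart: 14 of the 119 loci overlap another listed one. The deposited p-value and log2 columns rest on 1 library per group and were not used.

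Deposited counts were summed per locus and scaled to the library total (CPM). Log2 ratios add 0.5 reads to each count, and ratios of CPM do not. A count of 0 allows up to 3 counts, or 0.406 CPM in atphb3 and 0.403 CPM in Col. No molecular identifiers were used, so intervals cover counting error only. Levels are RPKM. Of the 119 loci, 22 have several listed transcripts, whose reads were added. Compartments come from the deposited names and the RefSeq notes. RefSeq TAIR10.1 held 114 of the 119 loci, and 98.8% of listed nuclear spans lay inside its loci.

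Members and gene lists were chosen with earlier results of these data known. Named were cytosolic, organellar and other loci at least 2-fold apart (up to 10 per direction, ranked by the interval bound nearest no difference), the 4 highest and 2 lowest cytosolic loci by RPKM, the 3 families of widest range, loci named in advance and 3 genes per list. Further loci were singled out after their values were seen. Some loci are not reported by name here and were left out of the plots that label loci or families; counts and sums include them. From lists, genes whose symbol or factor name the annotation gives were used, 19 of 30 assembly genes and 20 of 22 initiation factors. Alternatives were TMM (edgeR 4.0.16) and median of ratios scaling (DESeq2 1.42.0), other totals, filters and fold limits. The calculations were tested on simulated counts. Python 3.11.15, numpy 2.4.6, pandas 2.3.3, scipy 1.17.1 and R 4.3.3 were used.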

Additional observations from a re-analysis of the deposited data

How the results depend on the processing

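None of the results compared across alternatives changed direction. The median log2 ratio of the cytosolic loci lay between 0.82 and 1.23 in 15 alternatives, that of the mitochondrial loci between 0.63 and 0.80 and that of the plastid loci between -0.87 and -0.43 in 13 each. The highest cytosolic median, 1.23, came from requiring 40S in the name, which left 1 measured locus, at least 2-fold higher. The count of cytosolic loci past the limit was 59 at 1.5-fold and 0 at 4-fold in place of 23 at 2-fold, and 8 of 28 when reads were summed over families. At 2-fold it was 18 with TMM scaling and 18 with median of ratios scaling. It was 17 with a total without the 10 most abundant loci and 25 with a total without ribosomal protein loci. The log2 ratio of summed cytosolic reads was 0.77 with TMM scaling in place of 0.84. With TMM scaling, with median of ratios scaling and with a total without the 10 most abundant loci, 2 organellar loci, both plastid, were at least 2-fold lower in place of 1, and 1 mitochondrial locus in place of 2 was at least 2-fold higher. Without a read minimum, 6 organellar loci were higher and 3 lower by 2-fold, 2 of the lower ones plastid. With at least 200 reads, 0 organellar and 0 plastid loci were 2-fold lower. At 1.5-fold, 9 of 22 measured organellar loci were higher (background 22%) and 4 lower (background 18.3%), the latter share close to the background. Among them 3 plastid loci were lower and 5 mitochondrial loci higher. At 4-fold all of these counts were 0. No background share is given for the counts under other scalings, totals or read minimums, so those counts are not compared with all loci. The organellar median was 0.55 and the mean 0.25. The plastid median was -0.87 without overlapping loci, an alternative chosen after seeing the data, as were those on plastid and mitochondrial loci alone and the family sums. There were 117 values for 39 named genes under TMM scaling, median of ratios scaling or the authors' RPKM. Of these, 111 moved by no more than 0.5 of the width of the counting interval on the log2 scale, and 6 by more. A scaling shifts all loci nearly alike, so this mark follows read depth. The median of all measured loci was 0.08, and 0.01 with TMM scaling. TMM factors were 1.02 for atphb3 and 0.978 for Col. No paired analysis was possible because each group has 1 library, and no library could be left out. For loci with few reads, such as AT1G48830 and AT5G59240, depth limits what the libraries can show.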
